A study of Mus musculus with 31 samples.

Results

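The 9 genes described here, Cx3cr1, Csf1r, P2ry12, Tmem119, Trem2, Tyrobp, C1qa, C1qb and C1qc, mark microglia, the resident macrophages of the brain, in their resting state. They were found on the array by their symbols: every probe set that the platform annotation gives to 1 of these symbols alone was taken, which gave 15 probe sets out of 45101, for 9 genes out of 18194 with a symbol of their own. Csf1r and C1qb were each measured by 3 probe sets, Cx3cr1 and Trem2 by 2, and the other 5 genes by 1. Gene expression was measured on 31 Affymetrix mouse arrays, each from 1 sample of total RNA, which are labelled as 10 groups of sorted CD4 T cells from spleen and lymph nodes.

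Conventional T cells (3 arrays) and natural regulatory T cells (natural Treg, 4) are labelled as unstimulated CD4+Foxp3-EGFP- and CD4+Foxp3+EGFP+ cells of bicistronic Foxp3/EGFP mice, which report the transcription factor Foxp3 through a green fluorescent protein. Natural Foxp3deltaEGFP cells (2) are labelled as unstimulated reporter-positive cells of heterozygous females that carry the Foxp3deltaEGFP allele. Activated T cells (4) were conventional cells stimulated with antibodies to CD3 and CD28 without TGF-beta, and activated natural Treg (3) were natural Treg given the same antibodies with TGF-beta. Induced Treg (5) had been Foxp3-negative cells, were given both antibodies and TGF-beta for 3 days and were then sorted for the reporter. Failed induced Treg (3) were the cells of those cultures that stayed reporter-negative, and induced Foxp3deltaEGFP cells (3) were made by the same treatment of cells from Foxp3deltaEGFP mutant mice. The last groups, of 2 arrays each, were induced Treg and induced Foxp3deltaEGFP cells kept for 1 further week with interleukin 2 (IL-2) at 100 units per ml. Every group thus carried 1 of 2 green fluorescent reporter alleles, and the stimulated groups shared the CD3 and CD28 antibodies. The sources used here give neither the ages of the mice nor whether samples came from separate animals or cultures. A p-value here therefore sets a difference against the spread of these samples alone, and part of that spread may be technical.

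The arrays went against these labels, which are therefore used only as labels. Foxp3 had a mean intensity of 12.7 ± 1.68 (SD, n = 31) and Cd4 one of 20.4 ± 4.80, while Mbp, a myelin protein, had one of 20081 ± 1296, Snap25, a synaptic protein, 10272 ± 1085, and Gfap, an astrocyte filament, 5145 ± 530.3. Ranked within an array, the 14 measured T cell markers had a median percentile of 27.7, between 24.3 and 31.1 on the 31 arrays. The medians of 6 neuron, 5 oligodendrocyte and 6 astrocyte markers ran from 98.2 to 99.4, from 99.9 to 100.0 and from 98.8 to 99.4. The deposited median intensity of an array ran from 22.2 to 55.4, and the arrays fell into 3 sets by their brightness and their spiked-in hybridisation controls, with 15, 6 and 10 arrays. All arrays labelled conventional T, natural Treg, IL-2 induced Treg and IL-2 induced Foxp3deltaEGFP were in set 1, and all 3 activated natural Treg arrays in set 3.

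Microglia settle in the brain early in development and depend on signals from neurons and other brain cells. Csf1r is the receptor for the growth factors Csf1 and Il34 on which they rely to survive, and Cx3cr1 is the receptor for Cx3cl1, a chemokine that neurons carry on their surface. P2ry12 senses extracellular nucleotides and guides microglial processes, and Tmem119 is a membrane protein used to tell microglia from other macrophages. Trem2 recognises lipids and Apoe and signals through the adaptor Tyrobp, and C1qa, C1qb and C1qc encode the chains of C1q, the first component of the classical complement pathway, which microglia make in the brain and which tags synapses for removal. In the RefSeq gene table C1qb, C1qc and C1qa follow each other on chromosome 4 with no other protein-coding gene between them.

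RefSeq promoter sequences were given for 5 of the 9 genes. Those of Cx3cr1, C1qb and C1qc are shown, since the differences between label groups described below concern these genes and since C1qb and C1qc are neighbours. Each is the 250 bases before the gene's start, read 5′ to 3′ on the gene's own strand, the minus strand in all 3, in build GRCm38.p6 (chr9:120068297-120068546, chr4:136886201-136886450 and chr4:136892915-136893164). Capitals mark AGGAAG or GAGGAA on either strand (CTTCCT or TTCCTC on the other), the kind of purine-rich letters bound by ETS factors such as Spi1 (PU.1), the factor that directs the macrophage lineage.
Cx3cr1: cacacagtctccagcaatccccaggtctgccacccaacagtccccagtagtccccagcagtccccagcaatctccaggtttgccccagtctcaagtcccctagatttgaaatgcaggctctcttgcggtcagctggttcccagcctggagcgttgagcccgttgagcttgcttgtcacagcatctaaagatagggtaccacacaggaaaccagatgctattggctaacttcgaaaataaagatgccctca
C1qb: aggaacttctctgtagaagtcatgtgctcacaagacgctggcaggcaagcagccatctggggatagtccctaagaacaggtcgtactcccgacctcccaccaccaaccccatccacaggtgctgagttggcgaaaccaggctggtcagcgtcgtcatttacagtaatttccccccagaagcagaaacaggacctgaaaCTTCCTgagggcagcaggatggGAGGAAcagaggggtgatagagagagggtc
C1qc: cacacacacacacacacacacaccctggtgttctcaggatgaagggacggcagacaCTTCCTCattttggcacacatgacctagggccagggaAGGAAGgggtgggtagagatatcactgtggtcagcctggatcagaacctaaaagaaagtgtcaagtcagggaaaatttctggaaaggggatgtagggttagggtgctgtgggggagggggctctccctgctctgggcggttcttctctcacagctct
C1qb has CTTCCT 52 bases and GAGGAA 30 bases before its start. C1qc has CTTCCT 194 bases before its start, overlapped by TTCCTC at 193, and AGGAAG at 157. Neither motif was in the Cx3cr1 window. Among 32851 promoters of the same length, 29.5% held the first motif, 23.3% the second and 39.2% at least 1 of them, so a match is common and no binding is read from it.

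All 9 genes gave a signal on every array, and their median within an array was steady. After quantile normalisation, which gives all arrays the same distribution of intensities, the 9 genes (each by its brightest probe set) had an array median at percentile 82.1, with a range of 80.8 to 83.7 over the 31 arrays. 6 of the 9 lay above percentile 75 and all 9 above percentile 50. As a background, 27 bacterial control probe sets were read, on the assumption that their transcripts were not spiked in, which the sources do not say. Their median was 8.55, and 13.7 was their 95th percentile.

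Among the receptors, Csf1r probe set 1419872_at averaged 1939 ± 130 (SD, n = 31) in scaled intensity and stayed between percentiles 96.0 and 97.0. Its fold between the brightest and dimmest array, 1.30, was the lowest of the 15 probe sets. The second Csf1r probe set, 1419873_s_at, averaged 556 ± 81.8, and the third, 1423593_a_at, 245 ± 57.4 with a fold of 2.73, the highest of the 15. P2ry12 averaged 365 ± 25.1 between 314 and 426, a fold of 1.36. Tmem119 averaged 167 ± 27.7 between 122 and 255. Cx3cr1 probe set 1450020_at averaged 169 ± 28.2 between 127 and 228, and the other, 1450019_at, 37.0 ± 5.43 at a median percentile of 48.5.

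Tyrobp, the adaptor, averaged 365 ± 31.7 between 316 and 436. Its receptor partner Trem2 averaged 61.3 ± 10.1 on probe set 1421792_s_at, at percentile 56.1. The second Trem2 probe set, 1421226_at, averaged 19.1 ± 3.94 and lay above the bacterial 95th percentile on 29 of 31 arrays; it did not pass the filter on low values and was not tested. The C1q chains read 665 ± 85.6 for C1qa, 391 ± 38.4 for C1qb on probe set 1417063_at and 306 ± 39.8 for C1qc. The other C1qb probe sets averaged 175 ± 25.3 (1434366_x_at) and 176 ± 31.2 (1437726_x_at). Intensities of different probe sets are not comparable as amounts of RNA. In bulk RNA, fewer cells of a type and less RNA per cell cannot be told apart, so none of these values counts microglia.

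**Figure D1:**
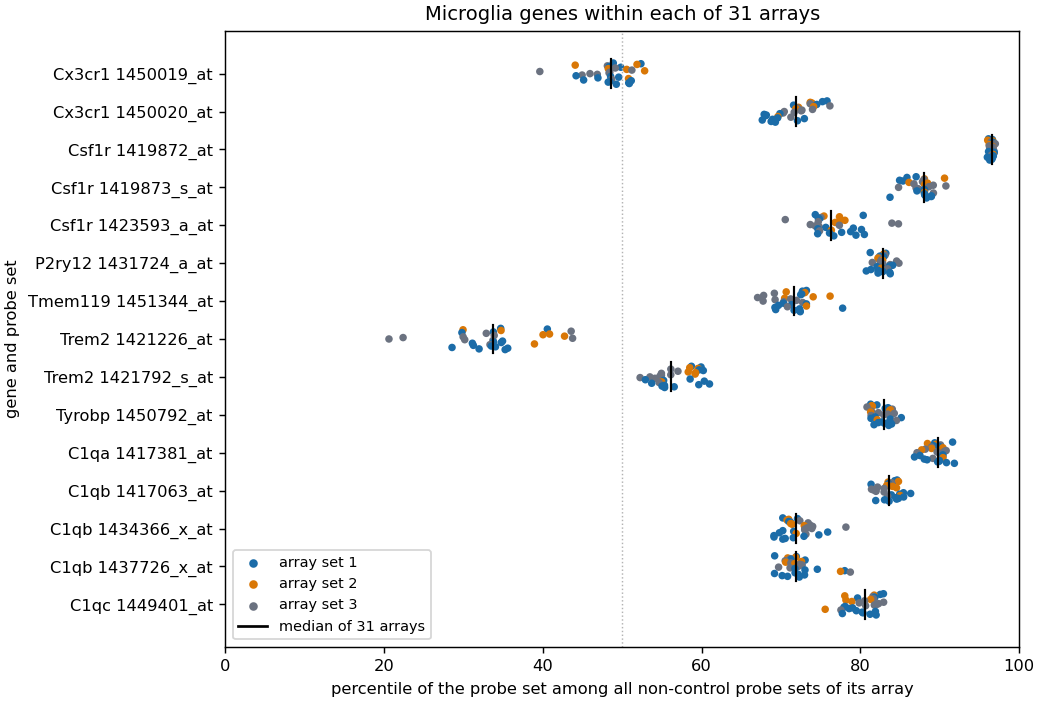
Percentile of each of the 15 microglia probe sets within its array (horizontal axis, in percent of all non-control probe sets), with 1 point for each of the 31 arrays, coloured by array set. The points lie between 96.0 and 97.0 for the brightest Csf1r probe set. They spread from 70.5 to 84.8 for Csf1r 1423593_a_at and from 20.6 to 43.7 for the dimmest Trem2 probe set.

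The spread of the members over the 31 arrays was near that of other probe sets. The SD of the log2 values had a median of 0.18 over the 14 tested probe sets, from 0.09 for P2ry12 to 0.29 for Csf1r 1423593_a_at, against 0.16 over all 24669 tested probe sets. 9 of the 14 lay above the median SD of probe sets of like intensity.

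Label groups were compared in 12 contrasts with limma, each log2 difference being on the log2(intensity + 16) scale, which understates the change of dim probe sets. A probe set was called at a Benjamini-Hochberg adjusted p under 0.05 over all 24669 tested. Over the 12 contrasts the 14 member probe sets gave 168 differences, of which 3 were called (1.79%), against 2.09% of all differences over all tested probe sets. At an unadjusted p under 0.05 the count was 18 of 168 (10.7%), against 12.3%. The median size of a member's difference was 0.10 on the log2 scale and the largest 0.42, and 0 of 168 exceeded 0.5. The moderated F test for any difference among the 10 label groups called 2 of 14 member probe sets (14.3%), against 12.4% of all. The members' shares of calls were thus near the background in each of these counts.

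**Figure D2:**
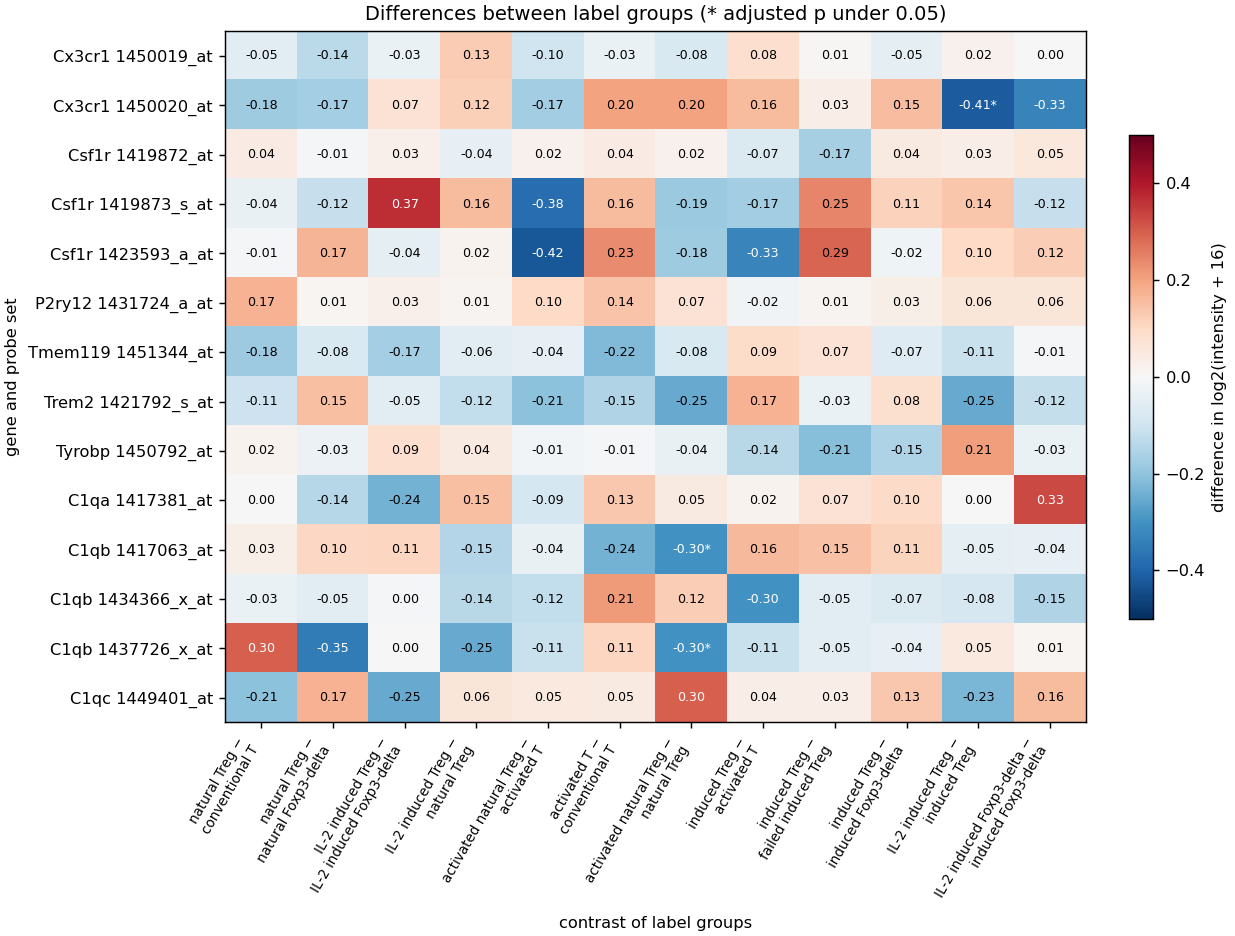
Log2 differences between label groups (first minus second) for the 14 tested microglia probe sets in rows and the 12 contrasts in columns, with the colour and the printed number giving the difference and an asterisk a call by limma. 3 cells carry an asterisk, 2 for C1qb and 1 for Cx3cr1, and no cell exceeds 0.5 in size.

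In 10 of the 12 contrasts no member was called. That held for the contrasts the series turns on: natural Treg against conventional T labels, where 0.00405% of all probe sets were called and the members' differences ran from -0.21 to 0.30, and induced Treg against activated T labels, where 0.0568% were called and they ran from -0.33 to 0.17. In each of these 2 of 14 members had an unadjusted p under 0.05, beside 2.53% and 10.6% of all probe sets. It held also for natural Treg against natural Foxp3deltaEGFP labels (0.0892% of all probe sets called) and induced Treg against induced Foxp3deltaEGFP labels (0% called), with 1 and 0 of 14 members at an unadjusted p under 0.05, beside 15.5% and 3.04% of all. IL-2 induced Treg against natural Treg labels (0.219% called) and against IL-2 induced Foxp3deltaEGFP labels (0% called) had 1 each, beside 8.4% and 2.74%. For activated T against conventional T labels, where 6.17% of all probe sets were called, 0 of 14 members were called and 1 had an unadjusted p under 0.05, beside 23.5% of all. These counts hold for quantile-normalised arrays. On the intensities as deposited, where the median difference over all probe sets was 0.45 for induced Treg minus activated T and -0.39 for activated T minus conventional T labels, 8 members were called higher in the first (62.6% of all probe sets called) and 1 lower in the second (22.6%). After scaling to array medians, where the median over all was 0.12 for activated T minus conventional T labels, 4 members were called higher there (26.8% of all), and 1 was lower in natural Treg minus natural Foxp3deltaEGFP labels (7.71%). The activation interaction asked whether the difference labelled activation differed between regulatory and conventional labels. Only the activated regulatory cells were given TGF-beta, so it mixes cell label with TGF-beta. The IL-2 interaction asked whether the difference labelled IL-2 culture differed between intact and mutant allele labels. Neither called a member, where 0% of probe sets were called. Each had 1 of 14 at an unadjusted p under 0.05, beside 7.55% and 2.7% of all.

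Among the receptors, Cx3cr1 was the only gene with a call. On probe set 1450020_at the arrays labelled induced Treg read 222, 214, 192, 195 and 192, and those labelled IL-2 induced Treg 127 and 172. The groups did not overlap, with both IL-2 arrays below all 5 others. The difference of IL-2 induced Treg minus induced Treg was -0.41 (SE 0.11, 95% interval -0.64 to -0.19, limma adjusted p = 0.0465), in a contrast where 1.79% of all tested probe sets were called and 23.8% had groups that did not overlap. The call was lost when any 1 of the 7 arrays was left out. Without IL-2 induced Treg 1 the difference was -0.22 (limma adjusted p = 0.661), without IL-2 induced Treg 2 it was -0.61 (limma adjusted p = 0.0534), and without any 1 of the induced Treg arrays it lay between -0.38 and -0.43 with limma adjusted p between 0.0571 and 0.0704. Where 1 IL-2 array remained, it was assumed to vary like the arrays of the other groups.

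The second Cx3cr1 probe set, 1450019_at, differed by 0.02 (SE 0.13) in the same contrast, and the mean of both by -0.20 (limma adjusted p = 0.248). On the intensities as deposited 1450020_at differed by -0.63 (limma adjusted p = 0.152), where the median over all probe sets was -0.27. Array sets moved with this comparison, since both IL-2 induced Treg arrays were in set 1 and the induced Treg arrays were 2 in set 1, 2 in set 2 and 1 in set 3. A fit that blocks on array set gave a difference of -0.43 (limma adjusted p = 0.0828), and within set 1 alone it was -0.51 (limma adjusted p = 0.0728). The summed intensity of the 28 measured genes of the microglia list ran from 8004 to 8286 over the induced Treg arrays and from 8057 to 8230 over the IL-2 induced Treg arrays, and that of 14 genes of other macrophages and monocytes from 1900 to 2293 and from 1896 to 2042. These sums overlapped between the groups. They weigh bright probe sets most, such as those of Ctss and Lgmn, with means of 2230 and 1418 over all arrays. The median difference of the 25 tested genes of the microglia list was 0.01 in this contrast.

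The corresponding contrast in the mutant cells went the same way for Cx3cr1 without a call. Induced Foxp3deltaEGFP arrays read 198, 173 and 172 and IL-2 induced Foxp3deltaEGFP arrays 138 and 143, so these groups did not overlap either. The difference was -0.33 (SE 0.12, limma adjusted p = 0.162), where 0.332% of all probe sets were called and 38.1% had groups that did not overlap. Label and array set cannot be told apart here, since both IL-2 arrays were in set 1 and the 3 others in sets 2 and 3. A fit that blocks on array set gave -0.35 (limma adjusted p = 0.593) and took the calls over all probe sets from 82 to 0.

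Across all 10 label groups, the F test called Cx3cr1 1450020_at (limma adjusted p = 0.00325). The mean log2 value was 7.24 ± 0.08 (SD, n = 4) for natural Treg, the lowest, followed by IL-2 induced Foxp3deltaEGFP (7.29 ± 0.03, n = 2), IL-2 induced Treg (7.36 ± 0.28, n = 2), natural Foxp3deltaEGFP (7.41 ± 0.10, n = 2), conventional T (7.41 ± 0.19, n = 3) and activated natural Treg (7.44 ± 0.07, n = 3). Activated T (7.61 ± 0.08, n = 4), induced Foxp3deltaEGFP (7.62 ± 0.10, n = 3), failed induced Treg (7.74 ± 0.21, n = 3) and induced Treg (7.77 ± 0.09, n = 5) came after. Of the 9 steps between neighbours in this order, 1 exceeded the pooled SD of its 2 groups, the step of 0.17 from activated natural Treg to activated T labels. Within array set 1 the 11 arrays labelled natural Treg, conventional T or IL-2 cultured ran from 127 to 182 with a median of 139. The 4 labelled induced or failed induced Treg ran from 166 to 222 with a median of 208. These pools follow the order of the group means on the same arrays, so their separation is not a test of the labels.

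**Figure D3:**
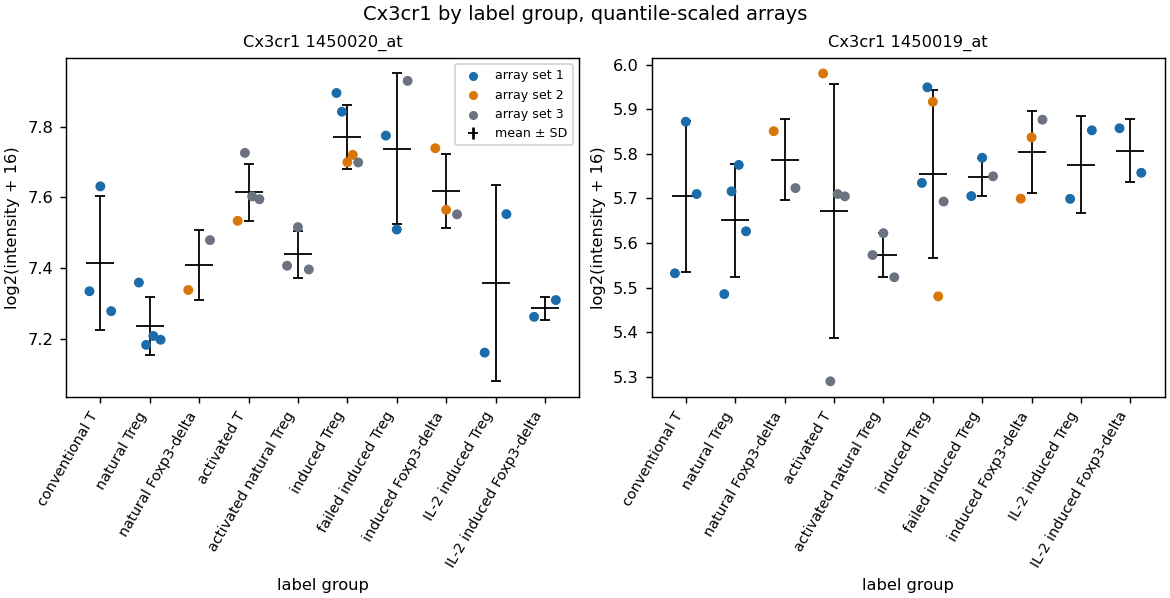
Log2(intensity + 16) of both Cx3cr1 probe sets (vertical axes, each panel with its own range) in the 10 label groups, with points for arrays coloured by array set and bars for the mean ± SD. On 1450020_at the means run from 7.24 for natural Treg to 7.77 for induced Treg labels, an order that 1450019_at does not repeat.

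The other receptors and the Trem2 and Tyrobp pair gave no call in any contrast, and some of their values stood apart all the same. Tyrobp read 327, 346, 330, 332 and 316 on the induced Treg arrays and 383, 373 and 399 on the failed induced Treg arrays. These groups did not overlap, as in 2.74% of all probe sets. The difference was -0.21 (SE 0.09, 95% interval -0.40 to -0.03, limma adjusted p = 1.00), in a contrast with 0% of probe sets called. The fit did not pair arrays, though both groups are labelled as cells of the same cultures. Trem2 on 1421792_s_at read 49.1, 45.5 and 51.0 on the activated natural Treg arrays and between 47.4 and 76.5 on the natural Treg arrays, a difference of -0.25 (SE 0.12, limma adjusted p = 0.160). These groups overlapped.

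The 3 Csf1r probe sets did not move together. On 1423593_a_at the activated T arrays read 238, 398, 424 and 192, so 2 of the 4 were far above the rest of the group. Activated natural Treg minus activated T labels gave -0.42 (SE 0.20, limma adjusted p = 0.345) on that probe set, the largest difference of any member, with overlapping groups. The same contrast gave -0.38 (SE 0.13, limma adjusted p = 0.182) on 1419873_s_at, with groups that did not overlap. In it 0.799% of all probe sets were called and 7.63% had groups that did not overlap. Its 2 labels differ in TGF-beta as well as in cell type. P2ry12 gave 0.17 (SE 0.07, limma adjusted p = 1.00) for natural Treg minus conventional T labels, where its arrays read 401, 389, 346 and 361 against 327, 349 and 314 and overlapped. Tmem119 had its brightest array, 255, among the conventional T arrays, whose others read 142 and 175.

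Of the C1q chains, C1qb differed in the contrast of activated natural Treg minus natural Treg labels, where 15.6% of all tested probe sets were called and 2 of the 14 members, both probe sets of C1qb and both lower. Calls in that direction made up 7.84% of all probe sets. On 1417063_at the activated natural Treg arrays read 343, 343 and 369 and the natural Treg arrays 446, 482, 429 and 396. All 3 of the first lay below all 4 of the second, as groups did not overlap in 29.1% of all probe sets. The difference was -0.30 (SE 0.08, 95% interval -0.47 to -0.13, limma adjusted p = 0.0166). On 1437726_x_at the arrays read 172, 147 and 161 against 168, 204, 183 and 259, which overlapped, with natural Treg 4 far above the rest. That difference was -0.30 (SE 0.10, 95% interval -0.51 to -0.09, limma adjusted p = 0.0437). The third C1qb probe set, 1434366_x_at, gave 0.12 (SE 0.12, limma adjusted p = 0.530).

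C1qc, the neighbouring gene, went the other way. It read 346, 338 and 312 on the activated natural Treg arrays and 261, 258, 278 and 270 on the natural Treg arrays. These groups did not overlap, as in 29.1% of all probe sets. The difference of 0.30 (SE 0.11, 95% interval 0.08 to 0.52) did not pass the threshold (limma adjusted p = 0.0561), and it turned with the scaling. On the intensities as deposited it was -0.32 (limma adjusted p = 0.140), and after scaling to array medians 0.34 (limma adjusted p = 0.0370), a call of higher C1qc on activated natural Treg arrays. C1qa differed by 0.05 (SE 0.14), with an interval from -0.24 to 0.33.

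Array set and label cannot be told apart directly here, since the 3 activated natural Treg arrays were in set 3 and the 4 natural Treg arrays in set 1. Their deposited medians ran from 24.2 to 29.3 and from 39.0 to 47.7, and the ratio of 3′ to 5′ actin probe sets from 2.05 to 2.13 and from 1.73 to 1.84. In a fit that blocks on array set, which other groups spanning several sets make possible, the C1qb differences were -0.26 and -0.30 with limma adjusted p of 0.318 and 0.427, and the calls over all probe sets went from 3841 to 49. Both calls were lost after scaling to array medians, where 1417063_at differed by -0.20 (limma adjusted p = 0.206) and 1437726_x_at by -0.31 (limma adjusted p = 0.0523). They were lost as well for the mean of the 3 C1qb probe sets, -0.16 (limma adjusted p = 0.0540). On the intensities as deposited the differences were -0.87 and -0.94 (limma adjusted p of 0.00491 and 0.00193), in a contrast whose median over all probe sets was then -0.54. The 1417063_at call was also lost without activated natural Treg 1 (-0.29, limma adjusted p = 0.0596), activated natural Treg 2 (-0.29, limma adjusted p = 0.0535) or natural Treg 2 (-0.26, limma adjusted p = 0.0562). The 1437726_x_at call was lost without any 1 of 5 arrays, all 3 activated natural Treg arrays and natural Treg 2 and 4, and without natural Treg 4 the difference was -0.19 (limma adjusted p = 0.171). The part of array set and RNA quality in the C1qb differences was not tested beyond these values. The summed microglia list ran from 7874 to 8181 over the activated natural Treg arrays and from 8077 to 8649 over the natural Treg arrays, and the list of other macrophages and monocytes from 2044 to 2179 and from 1907 to 2197. The 14 measured T cell markers summed to between 341 and 377 and between 329 and 339, without overlap. Of their 2 tested genes 1 was called, Cd3e, part of the antigen receptor complex of T cells. Cd3e was higher by 0.59 (SE 0.16, limma adjusted p = 0.0141) on the activated natural Treg arrays, where 16.1% of genes were called. It was higher by 0.81 (SE 0.16, limma adjusted p = 0.00623) on activated T than on conventional T arrays, where 6.37% were called. The median difference of the 2 genes was 0.24 and 0.39 in these contrasts, so the other, Zap70, went the other way in both. The conventional T arrays were in set 1 and the activated T arrays in sets 2 and 3. Foxp3 and Cd4 did not pass the filter on low values. Cd3e averaged 38.6 over all arrays, below the filter value of 39.8, and was tested through its brighter arrays. The part of the filter in the Cd3e calls was not tested. The part of these marker lists in the C1qb differences was not tested.

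The F test over the 10 label groups called C1qb 1437726_x_at as well (limma adjusted p = 0.00876). Its brightest arrays were the 2 labelled natural Foxp3deltaEGFP, at 250 and 273, and natural Treg 4, at 259. The other 28 arrays read 204 or less. In log2 values natural Foxp3deltaEGFP averaged 8.11 ± 0.08 (n = 2), natural Treg 7.76 ± 0.25 (n = 4), and the remaining 8 groups between 7.46 and 7.57. Of the 9 steps in this order, 2 exceeded the pooled SD of their groups, the last ones, to natural Treg (0.19) and to natural Foxp3deltaEGFP labels (0.35). Natural Treg minus natural Foxp3deltaEGFP labels gave -0.35 (SE 0.12, limma adjusted p = 0.154).

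**Figure D4:**
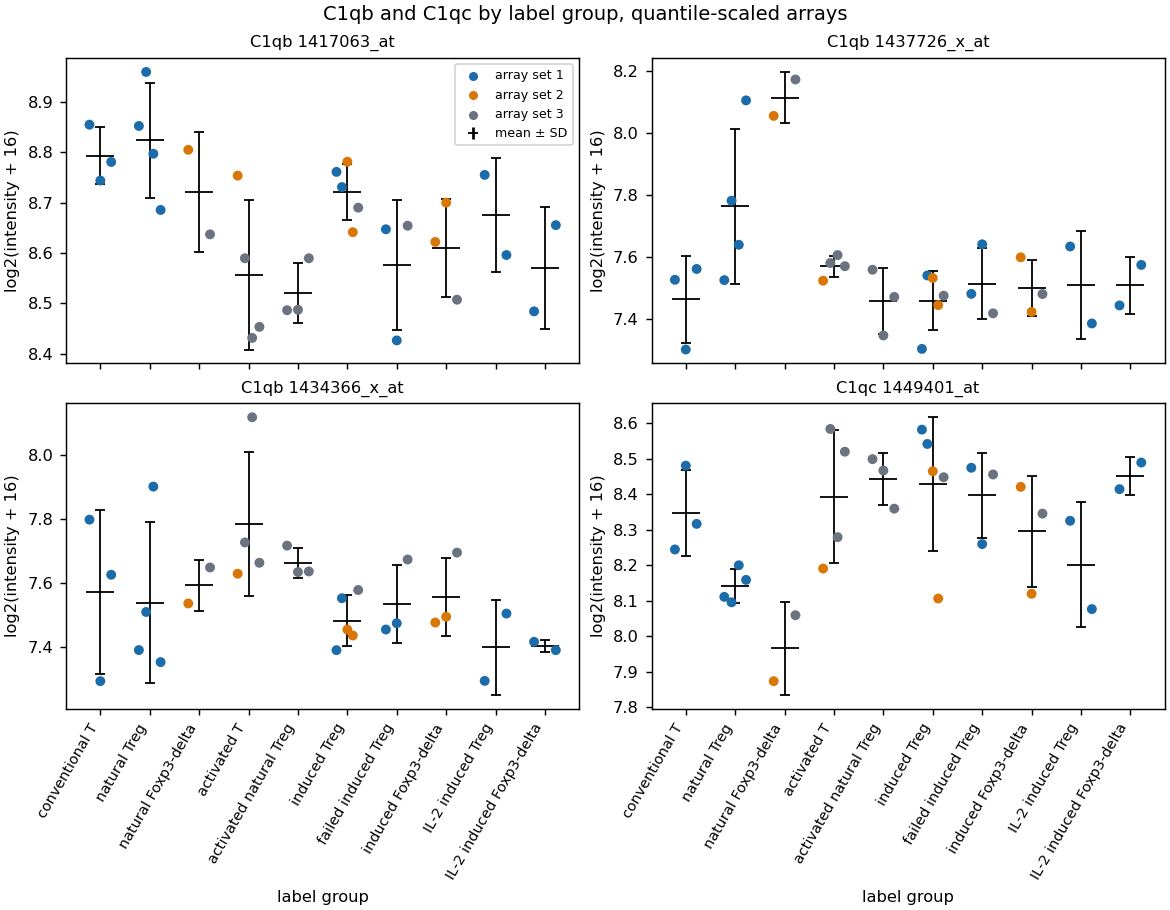
Log2(intensity + 16) of the 3 C1qb probe sets and the C1qc probe set (a panel each, with its own vertical range) in the 10 label groups, with points for arrays coloured by array set and bars for the mean ± SD. From natural Treg to activated natural Treg labels C1qb 1417063_at goes from 8.82 to 8.52 and C1qc from 8.14 to 8.44, in opposite directions.

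The 9 genes did not rise and fall together over the 31 arrays. Among 36 pairs of genes Pearson's r ran from -0.33 to 0.48 with a median of -0.05, and 15 pairs were positive. With a permutation test of 100000 resamples, two-sided, 0 of 44 pairs (8 of them probe sets of 1 gene) had a Benjamini-Hochberg adjusted p under 0.05. The highest pair was Cx3cr1 and C1qc, with r = 0.48 (permutation p = 0.00618, adjusted p = 0.272) and Spearman's rho = 0.48 (permutation p = 0.00624, adjusted p = 0.275). Its r was 0.49 without the 2 arrays farthest from the median of Cx3cr1, and 0.61, 0.80 and 0.33 within array sets 1, 2 and 3. C1qb and C1qc, chains of 1 protein encoded side by side, gave the lowest r, -0.33 (permutation p = 0.0698, adjusted p = 0.646), with rho = -0.29 (permutation p = 0.119), r = -0.31 without the 2 farthest arrays and -0.22, -0.30 and -0.14 within the sets. C1qa gave r = -0.17 with C1qb and 0.21 with C1qc.

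Trem2 and its adaptor Tyrobp gave r = -0.21 (permutation p = 0.252, adjusted p = 0.646), with rho = -0.21 (permutation p = 0.260), r = -0.28 without the 2 farthest arrays and -0.36, -0.02 and 0.12 within the sets. Probe sets of the same gene followed each other no better, with r from -0.28 to 0.22 and a median of 0.07 over 8 pairs. The 2 Cx3cr1 probe sets gave 0.08 and the 3 Csf1r probe sets -0.24, -0.12 and 0.22. Against the mean of the other 8 genes, r ran from -0.24 for P2ry12 to 0.39 for Tmem119, given as a description.

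**Figure D5:**
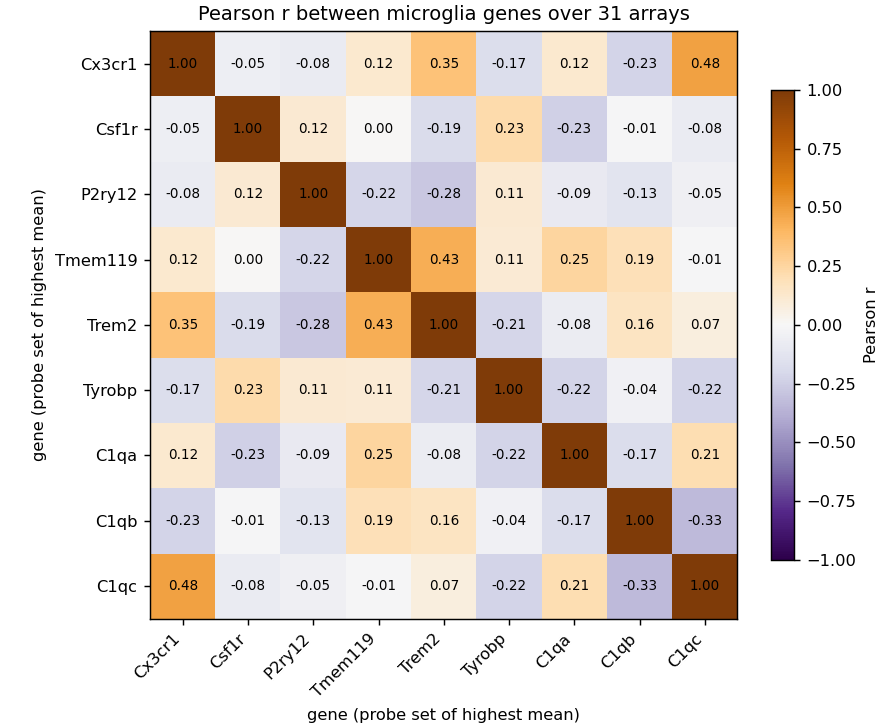
Pearson's r over 31 arrays between the 9 microglia genes, each by its brightest probe set, with the colour and the printed number giving r. Off the diagonal the values lie between -0.33 and 0.48.

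The genes most like the mean of the 9 over the 31 arrays were B2m, a subunit of MHC class I (r = 0.59), Myl6, a myosin light chain (0.59), E2f3, a cell cycle transcription factor (0.57), Asphd2 (0.57), Tsc22d1 (0.57), Timm17b, a part of the mitochondrial import machinery (0.57), Tmeff1 (0.56), Lonp1, a mitochondrial protease (0.55), H1f10, a linker histone (0.55), and Cnrip1 (0.53). With the array set means taken out they were H1f10 (0.66), Rnf145 (0.65), Ckap4 (0.62), Nptn (0.60), Pcnp (0.59), Tmeff1 (0.59), Rnaseh2c (0.58), Flcn (0.58), Rpl6 (0.58) and Tsc22d1 (0.58), of which 3 were among the first 10. The points share arrays and their scaling. The first 10 were the highest of 12160 genes, whose r ran from -0.65 to 0.59, so the lowest r was the larger in size. What r such a choice of the highest genes gives by chance was not tested. None of the 10 was in the microglia list in either case. The 25 tested genes of that list had a median r of 0.00 with the members, from -0.22 for Laptm5 to 0.33 for Cd68, with 15 of 25 above 0 (60%), against 49.5% of 12160 genes.

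Of a wider list of microglia genes 28 were on the array, with a median percentile of 64.3 that ran from 63.5 to 66.7 over the arrays. 9 lay above percentile 75 and 7 below percentile 50 (Itgam, P2ry6, Irf8, Fcrls, Slc2a5, Entpd1 and Gpr183, with means from 23.4 to 37.3). Of the brighter ones Ctss, a lysosomal protease, averaged 2230 ± 186 (SD, n = 31), Lgmn, another, 1418 ± 119, Rgs10, a regulator of G protein signalling, 1038 ± 67.7, Ly86 607 ± 116 and Fcer1g 248 ± 35.1. Spi1 was dim, at 45.6 ± 4.80 and a median percentile of 51.9. Of markers of other macrophages and monocytes, S100a9 averaged 552 ± 52.2 and S100a8 341 ± 65.6, both calcium-binding proteins of neutrophils and monocytes, Lyz2 (lysozyme) 508 ± 88.9, Mrc1, the mannose receptor, 54.8 ± 8.82, Ccr2, the monocyte chemokine receptor, 27.0 ± 7.61 and Cd163, a haemoglobin scavenger receptor, 24.8 ± 3.14. Ccr2 and Cd163 lay at median percentiles of 42.3 and 41.4. The whole list of 14 had a median percentile of 55.1, with 3 genes above percentile 75 and 6 below percentile 50. The 6 natural killer and B cell markers had a median percentile of 24.7, with all 6 below 50, and none was tested.

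The F test called 2 of 25 tested genes of the microglia list, Slc2a5 (limma adjusted p = 0.0128) and Itgb2 (limma adjusted p = 0.0441), against 12.7% of 12169 genes. In the contrast of activated natural Treg minus natural Treg labels, where 16.1% of genes were called, 3 were higher and 1 lower. Slc2a5, a fructose transporter, differed by 0.64 (SE 0.13, limma adjusted p = 0.00256), Entpd1, an enzyme that breaks down extracellular ATP, by 0.46 (SE 0.11, limma adjusted p = 0.00856), and Sall1, a microglial transcription factor, by 0.35 (SE 0.12, limma adjusted p = 0.0426). Itgb2, an integrin chain, fell by 0.22 (SE 0.06, limma adjusted p = 0.0113). The median of the 25 differences was -0.03, beside 0.00 over all genes. Slc2a5 was also higher on activated T than on conventional T arrays, by 0.43 (SE 0.13, limma adjusted p = 0.0443), with 1 of 25 called beside 6.37% of genes. In the other 10 contrasts 0 of 25 were called by limma, with between 0 and 5 at an unadjusted p under 0.05, beside 2.58% to 16.7% of all genes. Array set and label cannot be told apart directly in the contrasts with these calls. The activated natural Treg arrays were in set 3 and the natural Treg arrays in set 1. The conventional T arrays were in set 1 and the activated T arrays in sets 2 and 3. A fit that blocks on array set took the calls over all probe sets from 3841 to 49 and from 1522 to 20. The part of array set in the list calls was not tested. Slc2a5 and Entpd1 were dim, with means of 31.8 and 35.7 over all arrays and highest values of 54.5 and 50.2. The filter asked for values above 39.8 on at least 2 arrays, so both were tested through their brighter arrays. The part of the filter in their calls was not tested.

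Among the 14 measured ligands and partners of the members, the median percentile was 47.2, with 7 below percentile 50 and 8 above the filter. Trem1 and Sirpb1a, at 13.2 ± 2.93 and 11.4 ± 1.67 (SD, n = 31), averaged below the bacterial 95th percentile. Cx3cl1, the ligand of Cx3cr1, averaged 730 ± 75.8, Csf1 238 ± 28.6, Il34 56.6 ± 6.53 and Apoe, a ligand of Trem2, 7072 ± 1235 (SD, n = 31). Of 8 tested genes of that list 2 were called in activated natural Treg minus natural Treg labels, where 16.1% of genes were. As for the microglia list, array set and label cannot be told apart directly in that contrast. Hcst, an adaptor related to Tyrobp and its neighbour on chromosome 7, was higher by 0.47 (SE 0.15, limma adjusted p = 0.0299) on activated natural Treg than on natural Treg arrays, and Tgfb1, which encodes a TGF-beta cytokine, was lower there, with a difference of -0.60 (SE 0.12, limma adjusted p = 0.00254). The list's median was -0.06 there, and it had 0 calls by limma in the other 11 contrasts, with between 0 and 3 of 8 at an unadjusted p under 0.05, beside 2.58% to 24.1% of all genes. Hcst averaged 28.8 over all arrays, below the filter value of 39.8, and was tested through its brighter arrays. The part of the filter in the Hcst call was not tested.

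Of the 8 tested genes that signal below Tyrobp and Csf1r, 1 was called in each of 3 contrasts. Inpp5d, a phosphatase that opposes this signalling, was higher by 0.42 (SE 0.09, limma adjusted p = 0.00327) on activated natural Treg than on natural Treg arrays (16.1% of genes called), with a list median of 0.16. Gnai2, an inhibitory G protein subunit, was higher by 0.29 (SE 0.09, limma adjusted p = 0.0421) on activated T than on conventional T arrays. In that contrast 6.37% of genes were called, with a list median of 0.18. The Inpp5d and Gnai2 calls share the limit given for the microglia list, that array set and label cannot be told apart directly. Grb2, an adaptor of receptor tyrosine kinases, differed by -0.44 (SE 0.11, limma adjusted p = 0.0348) between IL-2 induced Treg and induced Treg arrays, the contrast in which Cx3cr1 was called and in which 1.89% of genes were, with a list median of -0.02. In the other 9 contrasts limma called 0 of 8, with 0 or 1 at an unadjusted p under 0.05, beside 2.58% to 16.2% of all genes.

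Of the 9 tested complement pathway genes outside C1q, 2 were higher and 2 lower on activated natural Treg than on natural Treg arrays. In that contrast 16.1% of all genes were called, and the list median was 0.06. Here too array set and label cannot be told apart directly, and the part of array set in these calls was not tested. Cd59a, which blocks the terminal complex, differed by 0.60 (SE 0.16, limma adjusted p = 0.0163) and Cd93, once taken for a C1q receptor, by 0.42 (SE 0.14, limma adjusted p = 0.0460). Cd55, which speeds the decay of the convertases, differed by -0.63 (SE 0.21, limma adjusted p = 0.0402), and Itgb2, which forms complement receptors, by -0.22, as above. In the other 11 contrasts limma called 0 of 9, with between 0 and 3 at an unadjusted p under 0.05, beside 2.58% to 24.1% of all genes.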

How the data were processed

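Total RNA of 31 samples was hybridised to 1 array each, and the labels sort them into 10 groups. The authors deposited probe set intensity values on a linear scale, per the file headers. The sources used here do not give how probes were summarised, corrected and scaled, and the scale and centring stay unknown. Genes were named through the platform annotation (34958 of 45101 probe sets had 1 symbol, 932 several, 64 were controls).

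Intensities were quantile normalised between arrays and taken as log2(intensity + 16). limma 3.58.1 in R 4.3.3 fitted 1 mean per label group over all arrays, with 12 contrasts, 2 interactions and a moderated F test, on 24669 probe sets above the table median (39.8) on at least 2 arrays, with controls left out; lists were tested in the same way on the brightest probe set of each of 12169 genes. The fit was tested on simulated data. Array sets came from Ward clustering on the log2 median, the log2 99th percentile and the log2 cre over bioB control ratio. Pairs used scipy 1.17.1. The number of arrays limits the precision.

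The members, lists and tests were chosen with earlier results of these data known. Named are all members, the 10 genes most like them, up to 4 called members of a list (or that with the smallest p) and defining genes of other cell types; further levels of list genes were chosen after values were seen. Same-numbered arrays were not treated as pairs in the main fit, and the sources do not say whether they were pairs. For induced Treg and failed induced Treg labels, cells of the same cultures, their deviations correlated at 0.31, 0.32 and 0.04. Other scalings, filters, blocks and left-out arrays were tried as alternatives.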

Additional observations from a re-analysis of the deposited data

Results flagged for a closer look

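In label groups of 4 or 5 arrays, 45 checks were made of whether the highest or lowest array stood apart from the rest, and 5 did. The nominal chance rate is about 1 in 20. The share flagged among all probe sets was not tested, so the count is not read as a property of the members. Cx3cr1 1450020_at read 148 on natural Treg 1 and between 129 and 132 on the other 3 natural Treg arrays. Csf1r 1419872_at read 1812 on activated T 3, with the others between 2007 and 2033, and Csf1r 1419873_s_at read 518 on natural Treg 3, with the others between 567 and 571. P2ry12 read 326 on induced Treg 1, with the others between 366 and 376. C1qc read 260 on induced Treg 4, with the others between 333 and 367.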

How the results depend on the processing

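Other processing moved the count of called members in the following cases, out of 14 tested unless stated. With intensities as deposited, limma called 11 in activated natural Treg minus natural Treg (2 after quantile normalisation), 8 in induced Treg minus activated T, 1 in activated T minus conventional T, 0 in IL-2 induced Treg minus induced Treg and 6 by the F test (2 otherwise). After scaling to array medians it called 4 in activated T minus conventional T, 1 in natural Treg minus natural Foxp3deltaEGFP and 5 by the F test, and in activated natural Treg minus natural Treg its 2 calls were Csf1r 1419872_at and C1qc (0.34), both higher, in place of the C1qb probe sets (-0.20 and -0.31). Without the filter, 1 of 15 was called in activated natural Treg minus natural Treg and 0 of 15 in IL-2 induced Treg minus induced Treg. With 1 probe set per gene the F test called 1 of 9, and with the mean of a gene's probe sets both contrasts had 0 of 9. With the array set as a block both had 0, and within set 1 the IL-2 contrast had 0. With the replicate block they had 1 and 0, which lost C1qb 1437726_x_at and Cx3cr1 and left the count of every other contrast at 0, and over all probe sets the block moved calls from 22 to 831 in natural Treg minus natural Foxp3deltaEGFP and from 441 to 143 in IL-2 induced Treg minus induced Treg; the deviations of 32 same-numbered pairs correlated between -0.22 and 0.32, with 3 over 0.1. When 1 array was left out, the counts ran from 0 to 2 (activated natural Treg minus natural Treg), from 0 to 1 (activated T minus conventional T), from 1 to 4 (F test), and were 0 in each case for IL-2 induced Treg minus induced Treg. 2 differences changed sign: C1qc in activated natural Treg minus natural Treg, to -0.32 as deposited, and C1qb in activated T minus conventional T, from -0.24 to 0.028 (limma adjusted p = 0.812) as the mean of its probe sets. Ranked among probe sets with 1 symbol, the median percentile of the 15 probe sets was 72.0 in place of 76.4. Of the 10 genes most like the members, 3, 2 and 0 were shared after removing array set means, after removing label group means and after scaling to array medians. Pseudocounts of 1 and 64, the filter on every array and a robust trended spread changed no call count by over 1.5 times. The cause of these changes was not tested.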
